A study of Caenorhabditis elegans with 57 samples.

Results

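These results describe RNA from the germlines of hermaphrodite *C. elegans* offspring (F1) of the second of 2 crosses in a study of H3K27me3 carried by sperm. The 6 libraries were chosen by their labels, as the 3 replicates of M+P- offspring and the 3 replicates of M+P+ offspring with paired-end counts, out of 57 samples in the series, 33 of them RNA. M+P- names offspring whose fathers were homozygous for mes-3(bn199) with glh-1::GFP::3xflag and fem-2(b245ts), so that per the study's design the sperm genome arrived without H3K27me3. M+P+ names offspring whose fathers carried mes-3(bn199) over the balancer hT2-GFP with the same tag and the same fem-2 allele, so that the sperm genome arrived with the mark. Offspring of both groups had 1 and the same genotype, glh-1::GFP::3xflag and mes-3(bn199) heterozygous over wild type with fem-2(b245ts), and their mothers were fem-2(b245ts) females of the Hawaii (CB4856) background, raised at 25 °C to the L4 stage to feminize them. The oocyte genome was thus Hawaiian and the sperm genome Bristol, and single nucleotide differences between them assigned part of the reads to 1 parent. Each sample pooled the distal part of 30 to 50 germlines from adults on day 1 of adulthood at 20 °C, and polyA RNA was sequenced.

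H3K27me3 is placed by Polycomb repressive complex 2 (PRC2), which in *C. elegans* consists of MES-2, the methyltransferase, with MES-3 and MES-6. In the worm germline the mark covers genes used in somatic tissues and most of the X chromosome, and loss of the complex is known to end in sterility. H3K36me3, placed by MES-4 and MET-1, marks genes transcribed in the germline and is largely kept apart from H3K27me3. Nucleosomes with their marks are in part retained in worm sperm, which is how a mark on the sperm genome can reach the embryo.

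The 5 libraries that entered the tests held 8262485 and 8030667 counts in M+P- germlines, against 10629864, 8560881 and 9622575 counts in M+P+ germlines. M+P- replicate 3 held 6925316 counts and lacked them over parts of the genome. Relative to the other libraries, its median log2 level of well covered genes was 0.28 on chromosome I and 0.29 on chromosome II, but -2.64 on chromosome IV, and all 116 such genes of the X and 509 genes of chromosome V had no count. It was therefore kept out of the tests and used on chromosomes I and II alone. Ribosomal RNA took 2.00% and 1.69% of the counts in M+P- libraries, against 2.34%, 2.16% and 2.09% in M+P+ libraries. A floor of 3 counts per library corresponded to 0.363 and 0.374 CPM (a gene's counts scaled to the library's total) in M+P- and to between 0.282 and 0.350 CPM in M+P+, which covers counting error only.

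The first question was whether offspring of the same genotype differ in germline RNA by what their fathers' sperm carried. Of 8326 genes tested with edgeR's quasi-likelihood test at a Benjamini-Hochberg adjusted p under 0.05, 182 were higher (2.19%) and 81 lower (0.973%) in M+P- germlines, together 3.16%. The higher genes were mostly near silence in M+P+ germlines, with a median of 6.14 CPM in M+P- and 0.848 CPM in M+P+, while the median over all tested genes in M+P+ was 39.8 CPM. In 99 of the 182 the M+P+ mean was under 1 CPM, and in 22 it was at least 10 CPM. Genes under 1 CPM in M+P+ could reach the level for testing through the M+P- libraries alone. The lower genes were moderately expressed, with a median of 11.5 CPM in M+P- and 23.6 CPM in M+P+. The changes of the higher genes were also larger: 69 had a log2 fold change above 3 and 9 one of at most 1, whereas 42 of the 81 lower genes fell by less than 1 on the log2 scale. The 2 M+P- libraries lay wholly above the 3 M+P+ libraries for all 182 higher genes, as for 15.4% of all tested genes, and wholly below them for all 81 lower genes, as for 12.7% of all tested genes. In bulk tissue, RNA from more or fewer cells of a type and more or less RNA per cell cannot be told apart, and the p-values measure the spread between these samples.

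The number of calls depended on single libraries. Leaving out M+P- replicate 1 gave 152 calls, and leaving out M+P- replicate 2 gave 106. The count was 157 when M+P+ replicate 1 was dropped, 534 when it was M+P+ replicate 2, and 97 when it was M+P+ replicate 3. In those 5 fits 55 of the 182 higher and 8 of the 81 lower genes passed every time, and 6 of the lower genes passed in none. With the replicate number as a block the count was 961, of which 540 were higher and 421 lower and which included all 263 genes. That fit has M+P+ replicate 3 without a partner. No gene of the 263 changed sign in any of these fits. Because the groups did not overlap for any of them, leaving out a single library could hardly change a sign, so this adds no support.

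**Figure D1:**
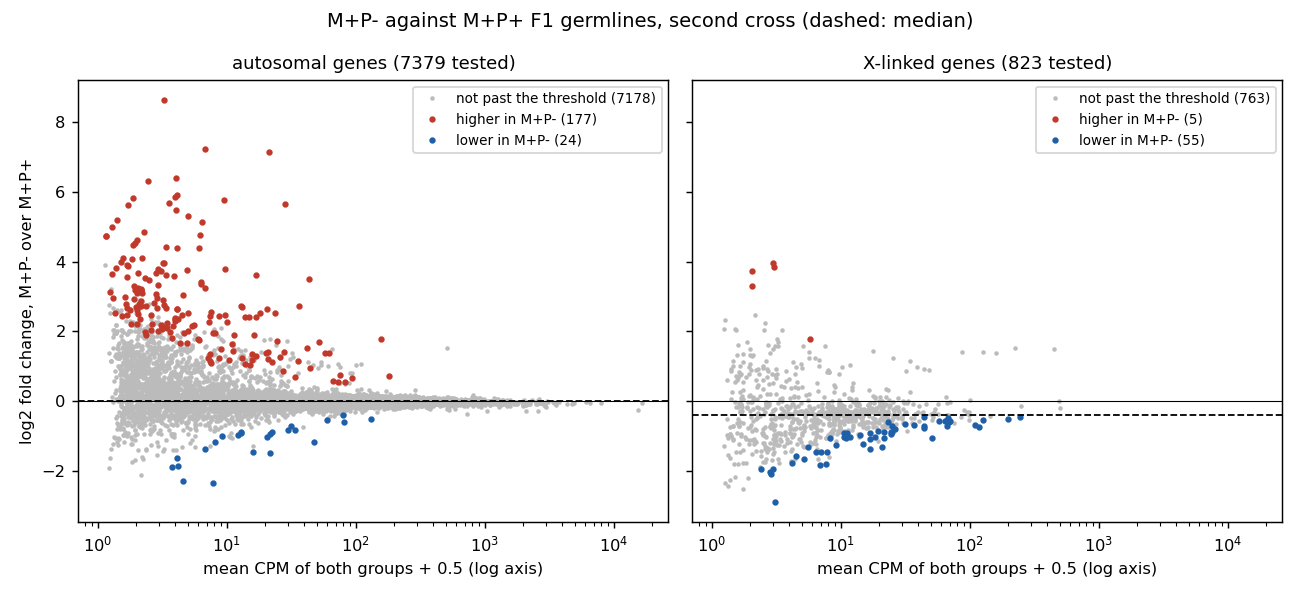
The log2 fold change of M+P- over M+P+ germlines (vertical axis) by the mean CPM of both groups plus 0.5 (horizontal log axis) for 7379 autosomal genes (left) and 823 X-linked genes (right), with genes past the threshold in colour and the median as a dashed line. Autosomal calls are mostly higher, 177 against 24, and X-linked calls mostly lower, 55 against 5, with the X-linked median at -0.39.

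Among the genes with the largest increases was talp-3, which had 5.45 and 5.6 CPM in M+P- germlines and no count in the 3 M+P+ libraries. Against a floor of 3 counts over the M+P+ libraries together, this was at least 53.1-fold higher (edgeR quasi-likelihood adjusted p = 0.00219). clec-204, a C-type lectin gene, had 15.7 and 9.46 CPM in M+P- germlines, against 0.0941, 0 and 0.104 CPM in M+P+ germlines. The M+P+ value rests on 2 counts, and the ratio of 182 has an exact 95% counting interval of 49.8 to 1514. Both M+P- libraries were far above every M+P+ library for each of these genes. lim-8, which encodes a LIM domain protein, had 5.45 and 8.59 CPM in M+P- and 0.188, 0 and 0 CPM in M+P+, a ratio of 101 with a counting interval of 27.3 to 842. T08B6.4, a gene without a symbol, had 42 and 40.6 CPM in M+P-, against 0.188, 0 and 0.624 CPM in M+P+ (log2 fold change 7.13 ± 0.41 SE). Its mean was 533 CPM in the germlines of him-8 males.

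Higher genes that somatic tissues are known to use came from several tissues. ketn-1, which encodes kettin, a giant actin-binding protein of the muscle sarcomere, had 58.5 and 51.6 CPM in M+P- germlines, against 0.847, 1.52 and 0.935 CPM in M+P+ germlines, a log2 fold change of 5.64 ± 0.21 (adjusted p = 5.01e-06, edgeR). ttn-1, the titin gene of muscle, had 16.22 and 27.5 CPM in M+P- and 3.1, 4.79 and 2.08 CPM in M+P+ (log2 fold change 2.71 ± 0.32). Neither gene's groups overlapped, and ketn-1 and ttn-1 passed in each of the 5 leave-one-out fits. They were the 2 genes that rose among 26 tested muscle genes (7.69%, against 2.19% of all tested genes), whose median log2 fold change was 0.88 with 21 above 0, against a median of 0.00 over all tested genes. ketn-1 would not have reached the level for testing without the M+P- libraries, which raises this share. The summed level of the muscle list was 3384 and 2933 CPM in M+P- and 3180, 3284 and 3174 CPM in M+P+, and hlh-1, the muscle-defining transcription factor gene, had no count in any of the 5 libraries. The muscle myosin gene unc-54 was present, at 11.6 and 15.1 CPM in M+P- and 6.02, 11.9 and 5.09 CPM in M+P+. Another, myo-3, had 1.09 and 2.61 CPM in M+P- and 0.564, 1.17 and 0.831 CPM in M+P+. For both the groups overlapped.

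Of 13 tested neuronal genes 3 rose (23.1%, against 2.19% of all tested genes), with a median log2 fold change of 0.98. Among the 3, unc-13 and ida-1 would not have reached the level for testing without the M+P- libraries, which raises this share and median. unc-31, whose product CAPS acts in dense-core vesicle release, had 11.9 and 11.7 CPM in M+P-, against 2.07, 2.22 and 2.08 CPM in M+P+, and passed in every leave-one-out fit. unc-13, which primes synaptic vesicles, had 4.24 and 11.3 CPM in M+P- and 0.847, 2.22 and 0.935 CPM in M+P+. The 2 M+P- libraries differed by more for unc-13 than for unc-31, and unc-13 did not pass without M+P- replicate 2, M+P+ replicate 1 or M+P+ replicate 3, with adjusted p-values reaching 0.325. ida-1, which encodes a dense-core vesicle membrane protein, had 1.21 and 2.12 CPM in M+P- and 0.188, 0 and 0.104 CPM in M+P+, and passed in 1 of the 5 leave-one-out fits. It reached the level for testing through the M+P- libraries alone. The neuronal markers snt-1, unc-86 and unc-47 had no count in any of the 5 libraries, the summed neuronal list was 207 and 222 CPM in M+P- against 182, 201 and 189 CPM in M+P+, and none of 24 neuropeptide genes reached the level for testing. Further genes of this kind past the threshold were qui-1, a gene of quinine avoidance in sensory neurons, with 9.68 and 13.6 CPM in M+P- and 0, 0.818 and 0.208 CPM in M+P+. gar-2, a muscarinic acetylcholine receptor gene, had 1.21 and 2.61 CPM in M+P-, against 0, 0.234 and 0.104 CPM in M+P+, and passed in 1 of the 5 leave-one-out fits.

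The intestinal and cuticle lists moved with single libraries. ges-1, the gut esterase gene, had 2.54 and 2.61 CPM in M+P- germlines, against 0.282, 0.701 and 0.208 CPM in M+P+ germlines, and was the 1 gene called among 14 tested intestinal genes, all 14 of which had a log2 fold change above 0 (median 1.44). Its call held in 1 of the 5 leave-one-out fits, with adjusted p-values up to 0.176. The summed intestinal list was 1883 and 3167 CPM in M+P-, against 746, 1622 and 479 CPM in M+P+. Most of this was vitellogenin, the yolk protein genes, at 1709 and 2866 CPM in M+P- and 626, 1439 and 384 CPM in M+P+, and these genes were not called. elt-2, the gene of the intestine's defining GATA factor, had 0.121 and 0.374 CPM in M+P- and 0.188, 0.234 and 0.104 CPM in M+P+. Of 42 tested cuticle genes 40 had a log2 fold change above 0 (median 0.97) and none passed, and their list summed to 1126 and 1675 CPM in M+P- and 394, 1239 and 475 CPM in M+P+. Of the somatic gonad, which encloses the germline, 8 of 8 tested genes had a log2 fold change above 0 (median 0.33) and none passed. Their list summed to 1055 and 1071 CPM in M+P-, against 1068, 981 and 905 CPM in M+P+, and lim-7, a gene of the gonadal sheath, had 4.48 and 4.48 CPM in M+P-, against 2.07, 2.45 and 1.45 CPM in M+P+. Within each group the library with the most intestinal RNA also had the most cuticle RNA, and the part of carried-over tissue in the calls of low somatic genes was not tested.

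Large gene families contributed further calls, to be read against 2.19% higher and 0.973% lower among all tested genes. Among them, srm-1, srh-16, oac-36, oac-52, nhr-81, nhr-277, fbxa-43 and the called C-type lectin genes reached the level for testing through the M+P- libraries alone. The shares of calls in these families, above all those with few tested genes, are raised by this. Of 5 tested chemoreceptor genes, out of 1550 in the table, srm-1 and srh-16 rose, and srm-1 had 7.26 and 6.60 CPM in M+P- against 0.470, 0.467 and 0 CPM in M+P+. Of 4 tested genes of O-acyltransferase homologs 2 rose. One was oac-36, with 5.2 and 8.72 CPM in M+P- and 0, 0.234 and 0.208 CPM in M+P+ (log2 fold change 5.48 ± 0.60), and the other oac-52, which passed in 2 of the 5 leave-one-out fits; srh-16 passed in 1. Among 19 tested C-type lectin genes clec-204, clec-205, clec-65 and clec-169 rose (median of the list 0.90), but clec-205 passed in 2 of the leave-one-out fits and clec-65 and clec-169 in 1 each. Among 64 nuclear receptor genes nhr-81, nhr-277 and nhr-22 rose and nhr-95 fell, of which nhr-22 and nhr-95 passed in 1 leave-one-out fit each, nhr-81 not without M+P- replicate 2 and nhr-277 not when M+P- replicate 1 was left out. Among 68 F-box genes fbxa-43, fbxa-64 and fbxc-50 rose, with a median of -0.05 for the list; fbxa-64 passed in 5 leave-one-out fits, fbxc-50 in 3 and fbxa-43 in 2. Members of these families can share reads with close copies, and the sources used here do not say how the counting treated strand, so genes that overlap or face each other are uncertain.

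In the lists of germline genes and of H3K27 and H3K36 machinery used here, 2 genes passed the test. Other chromatin genes outside these lists were also called, among them chd-3, a chromatin remodeller gene, with a log2 fold change of -1.06, and hda-4, a histone deacetylase gene, with -1.04, and hil-6, a linker histone gene, with 5.19. chd-3 passed in 4 of the 5 leave-one-out fits, hil-6 in 2 and hda-4 in 1. mes-3, the gene mutated in the fathers and heterozygous in all offspring, had 86.4 and 99.2 CPM in M+P- and 89.6, 97.8 and 86 CPM in M+P+ germlines, a log2 fold change of 0.01. mes-2 had 144 and 153 CPM in M+P- and 152, 153 and 144 CPM in M+P+. The groups overlapped for both genes. The log2 fold changes of mes-6, mes-4, met-1, glh-1, fem-2 and him-8 lay between -0.06 and 0.03, and none was called. None of 28 core germline genes passed (median 0.01), and none of 11 spermatogenesis genes (median -0.07).

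**Figure D2:**
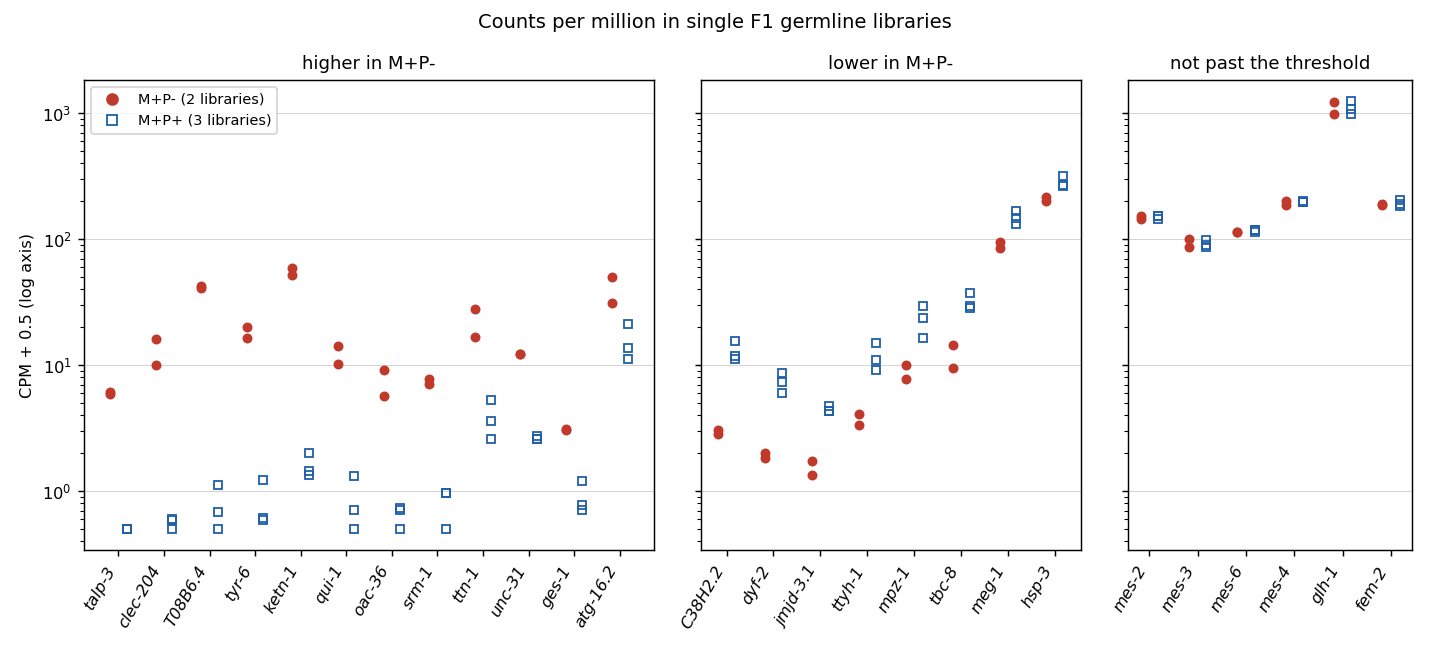
CPM plus 0.5 (vertical log axis) in each library for 12 genes higher in M+P- (left), 8 genes lower in M+P- (middle) and 6 genes not past the threshold (right), with the 2 M+P- libraries as filled circles and the 3 M+P+ libraries as open squares. The groups are apart for every gene of the left and middle panels; talp-3 has no count in M+P+, and mes-3 lies at 86.4 and 99.2 CPM in M+P-, overlapping the M+P+ values of 86 to 97.8 CPM.

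The first of these list members was jmjd-3.1, a gene for an H3K27 demethylase, which had 0.847 and 1.25 CPM in M+P- germlines, against 4.23, 3.85 and 3.85 CPM in M+P+ germlines. The groups did not overlap and the log2 fold change was -1.94 ± 0.38 (adjusted p = 0.0287, edgeR), but the call held in 1 of the 5 leave-one-out fits, with adjusted p-values up to 0.121. The other H3K27 demethylase genes were not called: utx-1 had a log2 fold change of -0.20, jmjd-3.2 had no count and jmjd-3.3 was too low to test. The second was meg-1, a germ granule gene of the maternal load, with 94.6 and 84.6 CPM in M+P- and 146, 166 and 132 CPM in M+P+ (log2 fold change -0.73 ± 0.10). meg-1 passed in each of the 5 leave-one-out fits and was the 1 call among 27 oogenesis genes, whose median was -0.07. Both jmjd-3.1 and meg-1 lie on the X.

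Calls were unevenly spread over the chromosomes. Chromosome IV held 59 higher genes, 4.25% of the 1388 tested there, and chromosome V held 52, 4.14% of 1255, against shares of 1.36% on I, 1.84% on II and 1.04% on III. Neighbouring calls of 1 direction formed 15 pairs of higher and 3 pairs of lower genes. Pairs also form where calls are dense, and the number expected from the density on each chromosome was not taken. clec-204 and clec-205 were such a pair, as were tank-1 and egl-2, a potassium channel gene, and nhr-22 and atg-16.2, an autophagy gene. Of these, nhr-22, atg-16.2 and clec-205 lost the call in 2 to 4 of the leave-one-out fits. The X held 5 higher and 55 lower genes, and the lower ones made up 6.68% of its 823 tested genes. The whole X was shifted: 657 of its tested genes (79.8%) had a log2 fold change below 0, and their median was -0.39, while the autosomal medians lay between 0.00 and 0.03. Scaling the libraries on autosomal genes alone, an alternative added after the data had been seen, put the X median at -0.43 and called 70 X-linked genes lower. Summed over its tested genes the X took 10725 and 12043 CPM in M+P-, against 12430.4, 15161 and 11127 CPM in M+P+, so that the groups overlapped in this total.

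The count of X-linked lower genes also moved with single libraries. It was 55 in the 5 libraries. Leaving out M+P- replicate 1 gave 32 and leaving out M+P- replicate 2 gave 4. Dropping M+P+ replicates 1, 2 and 3 in turn gave 21, 53 and 18. For the autosomal higher genes, 177 in the 5 libraries, the same fits gave 103, 87, 118, 402 and 68. With the replicate block there were 252 X-linked lower and 499 autosomal higher genes. The X-linked lower genes had varied roles. ttyh-1, of the tweety family of chloride channels, had 3.63 and 2.86 CPM in M+P- and 10.4, 14.6 and 8.63 CPM in M+P+, and did not pass without M+P- replicate 2. hsp-3, the endoplasmic reticulum chaperone BiP, had 202 and 215 CPM in M+P-, against 268, 316 and 265 CPM in M+P+ (log2 fold change -0.45 ± 0.07), and lost the call when either M+P- library was left out. The Argonaute genes nrde-3 and alg-1 were also lower, by log2 fold changes of -0.94 and -1.30, though each passed in 2 of the 5 leave-one-out fits. The 5 X-linked genes that rose were stha-3, ule-5, ZK813.3, ZC373.2 and hrg-11.2, and none of them had counts enough to be tested in the first cross. stha-3 had 5.81 and 3.49 CPM in M+P- and 0, 0.934 and 0 CPM in M+P+, and passed in 1 leave-one-out fit.

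Of the 24 autosomal lower genes 10 lay on chromosome III, 0.612% of the 1635 tested there. Shares on the other autosomes were 0.237% on I, 0.354% on II, 0.216% on IV and 0.159% on V. Of all tested genes, the X included, 0.973% were lower. dyf-2, an intraflagellar transport gene, had 1.33 and 1.49 CPM in M+P-, against 5.55, 6.89 and 8.11 CPM in M+P+. tbc-8, which encodes a Rab GTPase-activating protein, had 8.96 and 13.9 CPM in M+P- and 36.7, 28.7 and 28 CPM in M+P+, and its neighbour C38H2.2 had 2.54 and 2.37 CPM in M+P- and 10.7, 15.1 and 11.3 CPM in M+P+. All 3 genes had groups apart and passed in each leave-one-out fit. mpz-1, a gene for a protein of many PDZ domains on chromosome II, had 7.26 and 9.59 CPM in M+P-, against 23.1, 29.0 and 16 CPM in M+P+. Its groups were apart, and its adjusted p was 0.0195 with edgeR and 0.0679 in the fit that left out M+P- replicate 1.

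M+P- replicate 3 gave a look at the called genes in a sample that the choice had not used, for chromosomes I and II, although the M+P+ libraries it is set against had been used. Scaled to the counts of these 2 chromosomes, it lay above every M+P+ library for 48 of the 49 higher genes, where 27.5% of all 3101 tested genes did so. It lay below every M+P+ library for 9 of the 9 lower genes, where 32.2% of all tested genes did so. Its median log2 ratio to the M+P+ libraries was 1.75 for the higher genes, -1.16 for the lower genes and -0.01 for all tested genes. oac-36 had 12.3, 20.7 and 35.5 CPM of the 2 chromosomes in M+P- replicates 1, 2 and 3, against 0, 0.553 and 0.490 in M+P+. casy-1, the calsyntenin gene of neurons, had 157, 219 and 238 in the 3 M+P- replicates and 14, 22.1 and 13.7 in M+P+. The gene that did not follow was spp-23, with 4.01, 5.61 and 0.641 in M+P- and 0.887, 0.553 and 0.490 in M+P+.

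**Figure D3:**
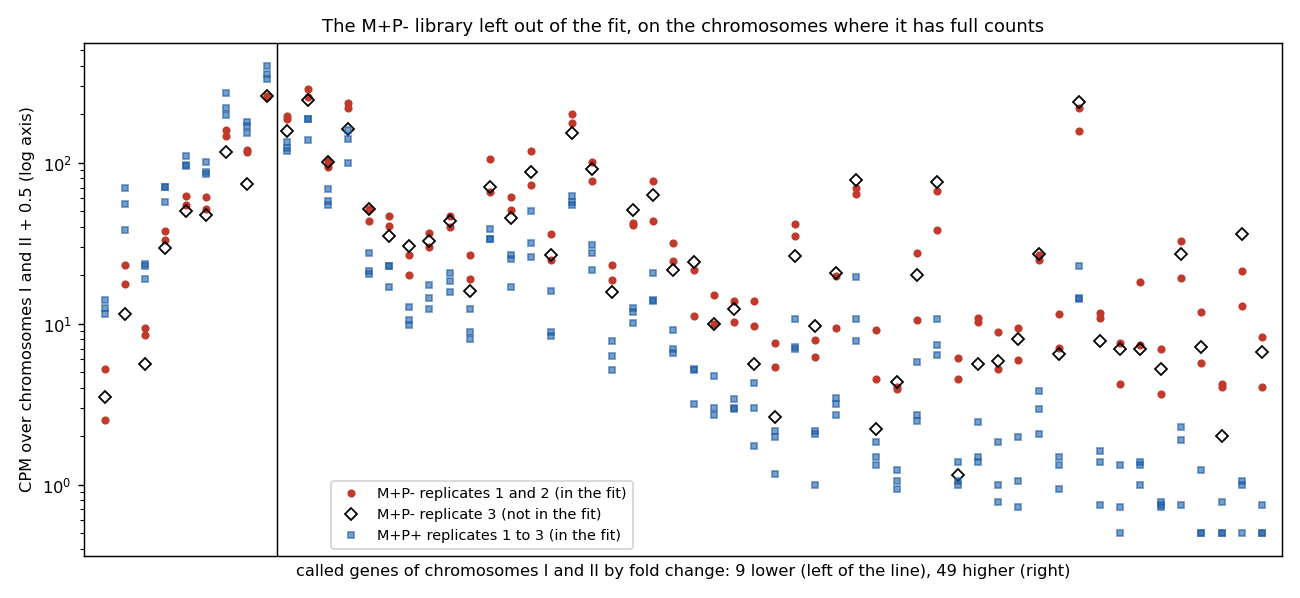
CPM over chromosomes I and II plus 0.5 (vertical log axis) for the 58 called genes of these chromosomes, ordered by fold change, 9 lower ones left of the line and 49 higher ones right of it. The M+P- library outside the tests (diamonds) lies outside the M+P+ range (squares), on the side of the M+P- replicates 1 and 2 (circles), for all genes but spp-23, though for F54D5.4, at 1.71 against an M+P+ maximum of 1.33, it is nearer to M+P+.

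Allele-assigned reads addressed which parent's copy gave the RNA. Reads covering a difference between the strains numbered 174826 and 186677 in M+P- and 228703, 196497 and 216654 in M+P+ libraries, and M+P- replicate 3 had none. Of the 182 higher genes 80 had such reads. The sperm allele gave 81.5% of them in M+P- replicate 1 (767 of 941 reads, exact 95% interval 78.9 to 83.9%, for counting error only, since PCR reads are not independent molecules) and 83.4% in M+P- replicate 2 (810 of 971), against 63.7%, 67% and 61.8% in the M+P+ libraries. Among tested genes that were not called the sperm share was 51.9% and 52.8% in M+P- and 51.3%, 52% and 51.9% in M+P+. Reads from the sperm copies of the higher genes made up 4387 and 4339 RPM (reads scaled to the library's allele reads) in M+P- and 1159, 1201 and 1039 RPM in M+P+. The oocyte copies of the same genes gave 995 and 862 RPM in M+P-, against 660, 590 and 642 RPM in M+P+. Both copies were thus higher in M+P-, the sperm copy by more. These genes were picked for their summed RNA in the same libraries, so their total reads had to be higher, while their division between the parents was not used in the choice.

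**Figure D4:**
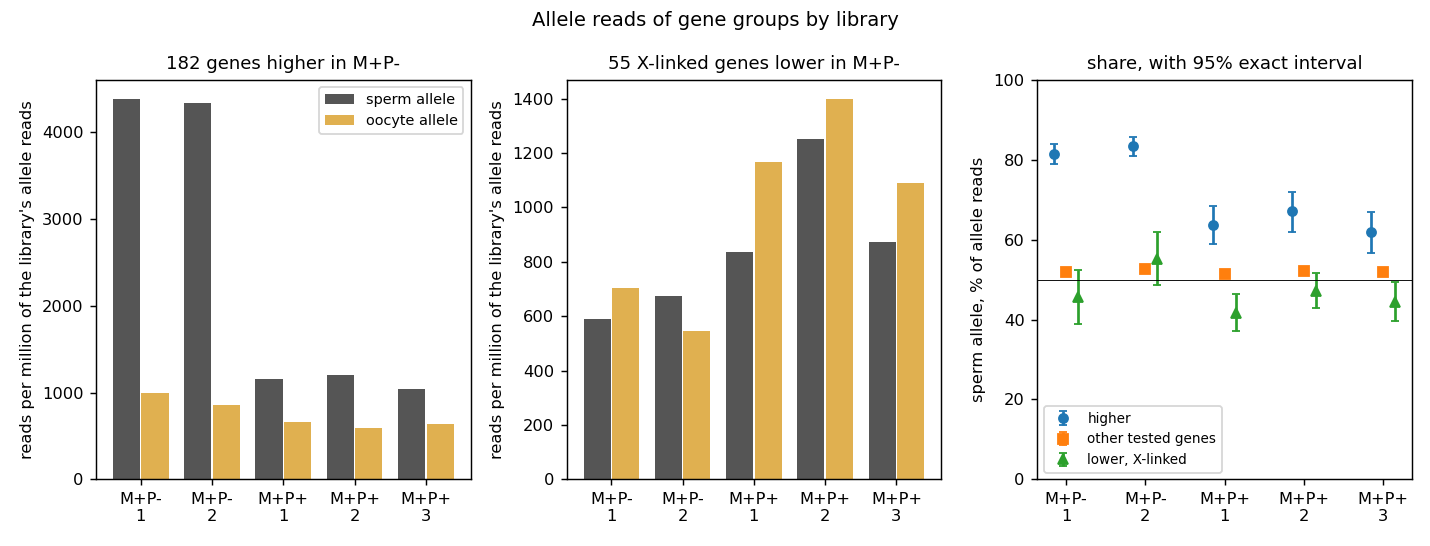
Reads from the sperm allele and the oocyte allele in each library, in RPM of its allele reads, for the 182 higher genes (left) and the 55 X-linked lower genes (middle), and the sperm allele's percentage of allele reads with exact 95% intervals for counting error only (right). The sperm share of the higher genes is 81.5% and 83.4% in M+P- and between 61.8% and 67% in M+P+, while other tested genes lie between 51.3% and 52.8% in all 5 libraries.

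Gene by gene, 29 of the higher genes had at least 20 allele reads over the 5 libraries. In 28 of them more than 50% of the M+P- reads came from the sperm allele, and in 23 it was above the M+P+ share, with medians of 84.3% in M+P- and 60.8% in M+P+. lec-6, a galectin gene, was the exception to the first count, with 5 sperm and 5 oocyte reads in M+P- replicate 1 and 5 and 12 in M+P- replicate 2. tank-1, which encodes a tankyrase-like protein, had many allele reads and a large change. Its level was 239 and 249 CPM in M+P- germlines, against 72.6, 79.1 and 59.2 CPM in M+P+, a log2 fold change of 1.78 ± 0.09. Its sperm allele took 89 of 96 and 100 of 123 reads in M+P-, against 29 of 38, 29 of 45 and 25 of 54 reads in M+P+. For clec-204 the sperm allele gave 12 and 13 reads in the M+P- libraries, where the oocyte allele gave 3 and 1, and no allele read fell on it in M+P+.

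The difference in the sperm share was then tested per gene, as an allele by history interaction over 2039 genes with a library block. No gene passed (0.0%) at an adjusted p under 0.05, the smallest adjusted p was 0.140, and 115 genes had an unadjusted p under 0.05 with edgeR and 23 with DESeq2, which also called 0. All 15 of the higher genes with enough allele reads had an interaction above 0, with a median of 1.5 on the log2 scale and 9 of them at an unadjusted p under 0.05, whereas 48.4% of all 2039 genes were above 0 (median -0.02). tank-1 had an interaction of 1.97 ± 0.48 (unadjusted p = 0.00054, edgeR) and an adjusted p of 0.275. Y105C5A.1 had the largest among the 5 genes with the smallest p, 5.32 ± 1.15, resting on 21 of 23 and 21 of 21 sperm reads in M+P- and on 6 of 14, 0 of 4 and 1 of 4 in M+P+. In simulated counts of the same size, 29 of 100 genes with a change of 2-fold and 72 of 100 with 4-fold were recovered by this test. The simulation gave each gene the spread usual at its level, not its own, and changed only genes with a mean of at least 5 counts. At these settings the per-gene test missed many changes, and genes with fewer counts were not covered.

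The X-linked lower genes were divided between the parents differently. Their sperm share was 45.6% and 55.3% in M+P- and 41.7%, 47.2% and 44.5% in M+P+, with ranges that overlapped. Sperm copies gave 589 and 675 RPM of allele reads in M+P-, against 835, 1252 and 872 RPM in M+P+. The oocyte copies gave 704 and 546 RPM in M+P- and 1167, 1400 and 1089 RPM in M+P+. These genes were picked for lower summed RNA in the same libraries, so lower totals had to follow. Over all 823 tested X-linked genes the sperm copies gave 5594 and 6364 RPM in M+P-, against 6786, 8407 and 6287 RPM in M+P+, and the groups overlapped. The oocyte copies gave 5663 and 5126 RPM in M+P-, against 7053, 7990 and 6171 RPM in M+P+, and the groups did not overlap. The autosomal lower genes had a sperm share of 69.6% and 69.9% in M+P-, against 69.7%, 71.0% and 70.5% in M+P+.

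The first cross of the study, with mes-3(bn35) in place of mes-3(bn199), without the glh-1 tag, with fem-2 heterozygous and with him-8(e1489) heterozygous in the offspring, gave 4 hermaphrodite germline libraries that share no sample with the second. Of 8409 genes tested there, 5.11% were higher and 4.63% lower in M+P-. Of the 182 genes higher in the second cross 158 were tested in the first. Of these 156 had a log2 fold change above 0, where 50.7% of all genes tested in both did, 139 were called higher, none was called lower, and the median was 2.45. ketn-1 had a log2 fold change of 5.64 in the second cross and 5.86 in the first. Of the 55 X-linked lower genes 54 were below 0 in the first cross and 52 were called lower there, with a median of -1.11, and jmjd-3.1 fell by 2.17 on the log2 scale. Of all 820 X-linked genes tested in the first cross, 749 were below 0 and 316 were called in either direction. The X-linked median over all tested genes was -0.39 in the second cross and -0.71 in the first. The autosomal lower genes were less alike: of 24, 16 were below 0 in the first cross, 9 were called lower and 1, mpz-1, was called higher.

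**Figure D5:**
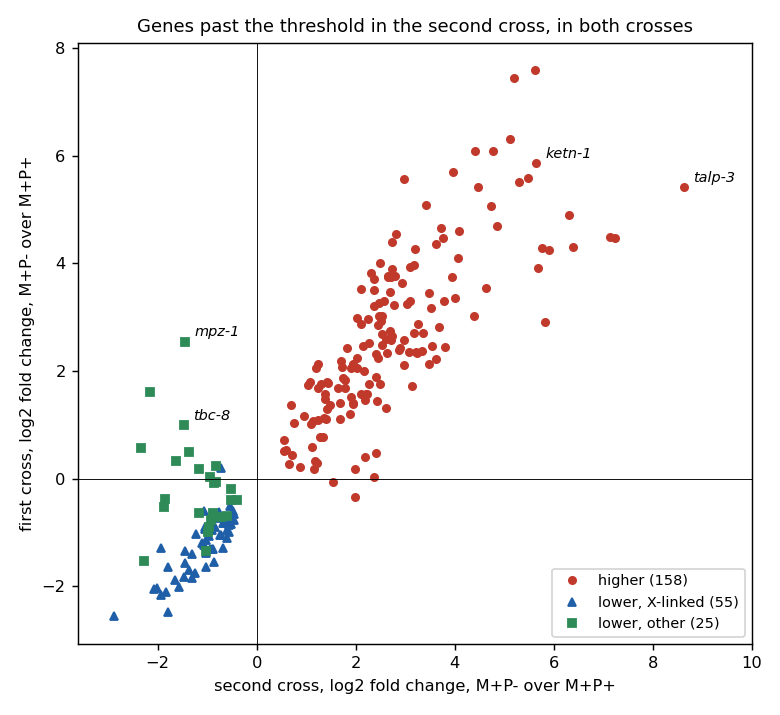
Log2 fold change of M+P- over M+P+ in the second cross (horizontal axis) and in the first cross (vertical axis) for the genes past the threshold in the second cross that were tested in both, 158 higher genes (circles), 55 X-linked lower genes (triangles) and 25 other lower genes (squares). Nearly all higher and X-linked lower genes keep their side of 0, while mpz-1 and tbc-8, below 0 in the second cross, lie above 0 in the first.

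A direct test of the difference between the crosses, the M+P- effect in the second minus that in the first, was positive in 2 genes (0.0223%) and negative in 14 (0.156%) of 8961 tested. With the replicate number as a block the count was 50, of which 20 were positive and 30 negative and which included all 16 genes. Of these 16 genes, 15 were past the threshold in the first cross and 2 in the second. For the 14 with a negative difference, every second-cross M+P+ library stood above both first-cross M+P+ libraries, by 1.83 to 62.3 times in the means (median 6.39), while the M+P- means of the second cross were 0.769 to 1.83 times those of the first (median 1.28). These genes were picked by a test on the same libraries, so such a gap is partly built in. Its share over all tested genes was not taken. F25E5.1 had 162 and 194 CPM in M+P- and 165, 192 and 167 CPM in M+P+ germlines of the second cross, against 176 and 180 CPM in M+P- and 64.1 and 73.9 CPM in M+P+ germlines of the first. Its levels were thus alike in 3 of the 4 groups and lower in M+P+ of the first cross. mpz-1 had 8.42 and 4.64 CPM in M+P- and 0.931 and 1.27 CPM in M+P+ of the first cross, so that its highest levels were those of second-cross M+P+ germlines. The 24 autosomal lower genes as a group had medians of 10.2 CPM in M+P- and 24.7 CPM in M+P+ of the second cross, against 8.44 and 10.5 CPM in the same groups of the first. The mes-3 allele, the tag, the fem-2 and him-8 genotypes and the cross itself cannot be told apart in these comparisons.

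The higher genes also had levels in other samples of the series. F2 germlines came from self progeny of M+P- hermaphrodites, with the F1 genotype. There 170 of the 182 genes (93.4%) had at least 1 CPM, against 97.3% of all tested genes. The median of the higher genes there was 5.0 CPM. In germlines of mes-3(bn35); him-8(e1489) males, the genotype of the M+P- fathers of the first cross, it was 4.84 CPM, against 0.570 CPM in germlines of him-8 males. In L1 larvae it was 22.1 CPM in M+P- and 17.4 CPM in M+P+. Over all tested genes the median was 40.7 CPM in F2 germlines, 32.4 CPM in the mes-3 male germlines and 29.7 CPM in him-8 male germlines. For L1 larvae the median over all tested genes was 28.8 CPM in M+P- and 26.7 CPM in M+P+. At least 10 CPM were reached by 106 of the 182 genes in M+P+ larvae (58.2%) and by 26 in him-8 male germlines (14.3%), against 71.1% and 62.6% of all tested genes. The X-linked lower genes had a median of 0.333 CPM in him-8 male germlines, where the X is known to be nearly silent.

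CUT&RUN profiles of H3K27me3 and H3K36me3 from the same crosses, with 2 replicates of each group, gave the authors' deposited z-scores per gene, which are compared here as values without a test. Of the 182 higher genes 178 had a score. Of these, 172 (96.6%) were above 0 for H3K27me3 in him-8 male germlines, where 38% of all tested genes were. The lower genes shared this, so it did not set the higher genes apart. Scores there were above 0 in 54 of 55 X-linked lower genes and in 20 of 23 autosomal lower genes with a score. The same held for 775 of the 801 X-linked tested genes with a score. The median H3K27me3 score of the higher genes was 0.352 and 0.349 in M+P- and 0.483 and 0.442 in M+P+ germlines. In 97 of the 178 genes (54.5%) both M+P- scores were below both M+P+ scores, where 13.3% of all tested genes were. The median H3K36me3 score of the same genes was 0.371 and 0.284 in M+P-, against -0.179 and -0.154 in M+P+, and 164 of the 178 had the higher mean in M+P-, as did 1808 of all 8068 tested genes with a score. The X-linked lower genes had median H3K27me3 scores of 0.769 and 0.619 in M+P- and 0.640 and 0.600 in M+P+, and in none of the 55 did both M+P- scores lie below both M+P+ scores. All X-linked tested genes were close to this, with medians of 0.753 and 0.606 in M+P- and 0.628 and 0.610 in M+P+. In 2.75% of those with a score both M+P- scores lay below both M+P+ scores. Of the H3K27me3 reads that could be assigned to a parent over the higher genes, 39.6% and 46.6% came from the sperm genome in M+P-, against 51.6% and 51.1% in M+P+. Over all tested genes the shares were 44.9% and 46.4% in M+P- and 49.1% and 50.4% in M+P+.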

How the data were processed

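The deposited table holds paired-end read counts per gene made by the authors, and single-end counts split by parental allele. Per the submitters' processing notes TopHat2 2.1.1, Bowtie2 2.3.5.1, HTSeq and DESeq2 1.22.2 were used with the ce10 build. Of 45461 genes 44080 were matched to RefSeq names. Raw counts of 5 libraries were fitted with edgeR 4.0.16 in R 4.3.3 (filterByExpr, TMM, quasi-likelihood test, adjusted p under 0.05), and the tests were also run with DESeq2 1.42.0. Allele counts needed a mean of 10 reads per library. Fold changes are log2 values fitted here, and levels are plain CPM. The authors' deposited table of log2 fold changes and p-values called 166 of the 182 higher and 69 of the 81 lower genes in the same direction. The CUT&RUN values are a z-score per gene that the authors computed before they deposited it, with its scaling not stated, and these scores and the allele counts of H3K27me3 fragments were used as values only.

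Genes are named by rule: the 16 highest and 10 lowest fold changes with a symbol and 3 of each without one among calls with separate groups, genes of the H3K27 and H3K36 machinery, called members of the lists, calls of the interaction tests and 6 genes of earlier results. Others, such as tank-1, casy-1, spp-23, lec-6, Y105C5A.1, nrde-3, alg-1, chd-3, hda-4 and F54D5.4, were chosen after their values were seen, as were the vitellogenin genes, elt-2, lim-7, unc-54 and myo-3. The members and lists were chosen with earlier results of these data known. Same-numbered replicates deviated together over 3034 genes of chromosomes I and II in 6 libraries (r = 0.288, 0.466 and 0.371). No label says that the numbers pair the samples, so a pairing is inferred from these values only. The reported fits have no replicate block and so leave such a pairing out, and the blocked counts are given beside them as an alternative. No 2 libraries of a group were alike within sampling noise (chi-square per gene 6.58 to 7.93). Tested on simulated data with 8326 genes, the edgeR fit recovered 79 of 100 genes changed 2-fold and 87 of 100 changed 4-fold, and 15 of its 181 calls were unchanged genes. No count column of the table was outside the sample labels.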

Additional observations from a re-analysis of the deposited data

Results flagged for a closer look

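The M+P- effect differed between the second and the first cross, by a test of the difference itself (edgeR's quasi-likelihood test over 8961 genes, adjusted p under 0.05), in 16 genes. The difference is the log2 fold change of M+P- over M+P+ in the second cross minus that in the first. It was negative for F25E5.1 (-1.36), efhd-1 (-2.11), T10D4.6 (-1.12), mpz-1 (-3.99), daam-1 (-2.81), npr-15 (-4.94), C32E12.4 (-2.89), dnbp-1 (-0.90), F36D3.1 (-1.02), tbc-8 (-2.47), mca-2 (-2.21), T28C6.7 (-1.72), ptr-19 (-2.55) and arrd-26 (-5.06). It was positive for eef-1A.2 (1.29) and gas-1 (1.17).

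Among the 14 negative genes were several of signalling and membranes: npr-15 is a neuropeptide receptor gene, daam-1 a formin gene and mca-2 a plasma membrane calcium pump gene. npr-15 had 5.57 and 5.11 CPM in M+P- and 8.18, 10.05 and 10.3 CPM in M+P+ germlines of the second cross, against 4.71 and 2.48 CPM in M+P- and 0.339 and 0.0744 CPM in M+P+ germlines of the first. daam-1 had 20.6 and 16.1 CPM in M+P- and 26.6, 19.4 and 19.02 CPM in M+P+ of the second cross, and 10.96 and 9.11 CPM in M+P- and 1.86 and 1.56 CPM in M+P+ of the first. Both genes were thus low in 1 group of 4, the M+P+ germlines of the first cross.

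gas-1, a gene of mitochondrial complex I, had 21.3 and 24.9 CPM in M+P- and 21.4, 22.1 and 19.6 CPM in M+P+ of the second cross, against 20.6 and 22.03 CPM in M+P- and 49.4 and 40.0 CPM in M+P+ of the first. eef-1A.2, a translation elongation factor gene with a near-identical copy that may share its reads, had 33.4 and 43.7 CPM in M+P- and 39.8, 49.1 and 37.7 CPM in M+P+ of the second cross, against 14.8 and 15.3 CPM in M+P- and 38.7 and 42.95 CPM in M+P+ of the first. The calls rested on few libraries: leaving out 1 of the 9 at a time gave between 8 genes (without first-cross M+P- replicate 1; 9 without first-cross M+P+ replicate 2) and 21, and putting M+P- replicate 3 back gave 0.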

How the results depend on the processing

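The 263 calls became 0 with all 6 libraries in the fit (294 at an unadjusted p under 0.05, edgeR; smallest adjusted p 0.0777) and M+P- replicate 3 among them. On chromosomes I to III the 6 libraries gave 44 calls. Chosen after seeing the data, a fit of chromosomes I and II gave 91 calls with 6 libraries and 56 with 5, and 243 with 6 libraries and the replicate block. Without the filter on low counts there were 908 calls, and with the replicate block 961. Leaving out 1 library at a time gave 97 to 534. DESeq2 called 349, of which 250 were among the 263, and the other size factors, the 1 CPM filter, single-end counts, the fit with F2 libraries and that without ribosomal RNA gave 262 to 364. Of the named genes' values under the alternatives, 921 kept their side of the threshold, 152 no longer passed and 2 newly passed. No gene past the threshold changed sign, while genes near 0 could. The log2 fold change of mes-3 was 0.01 in the main fit and -0.02 with the replicate block.

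For the allele by history test, no TMM scaling gave 1 call (smallest adjusted p 0.0465) and the other settings that were run 0, the replicate block included. The fit with all 6 libraries was not run, because M+P- replicate 3 has no allele counts. The 16 differences between the crosses became 0 with all 10 libraries (141 at an unadjusted p under 0.05, edgeR), 33 with DESeq2, 85 without a filter and 50 with the replicate block, and 8 to 21 when 1 library was left out. The 819 first-cross calls, with alternatives chosen after seeing the data, were 595 with DESeq2, 963 with the replicate block and 369 to 748 when 1 library was left out.

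With 2 libraries against 3, genes at the floor of 3 counts cannot be ranked by fold change. The cause of each of these changes in counts was not tested.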
